A study of Rattus norvegicus with 2 samples.

Results

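The miR-30 family was followed in left ventricles of 16-week-old Wistar rats, in a library from animals trained by swimming and a library from control animals. The swim group swam in 2 sessions of 90 minutes a day for 8 weeks, which served as a model of physiological growth of the heart, and the control group was kept under normal conditions, per the labels' protocols. Each group is represented by 1 small RNA library, and the number of animals behind it is unknown here. Members were the table rows named mir-30a, mir-30b, mir-30c-1, mir-30c-2, mir-30d and mir-30e, which are 6 of the 193 unmarked miRNA rows. The rows of the 2 mir-30c copies held 13354 and 13355 counts in swim and 7165 counts each in control, so they were taken as one measurement, mir-30c, which leaves 5 measurements.

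A miRNA is cut from a hairpin precursor, and the strand that is kept guides a silencing complex to messenger RNAs that pair with its seed, bases 2 to 8 from the 5′ end. The members of the miR-30 family share a seed and are abundant in heart muscle cells. In the heart the family has been studied for repressing connective tissue growth factor, a driver of fibrosis, and the autophagy gene Becn1. Levels of miR-30c have been reported as lowered in overloaded or failing hearts.

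The mature sequences are shown because the shared seed defines the family and the rest of each sequence tells its members apart. RefSeq (build GRCr8) gave a mature sequence for 4 of the 6 rows (mir-30a, mir-30c-1, mir-30c-2 and mir-30e) and for mir-384, a miRNA outside the family's name that carries the same seed. Capitals mark the seed, GUAAACA, which pairs with the site UGUUUAC in a target.
miR-30a-5p: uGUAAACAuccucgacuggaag
miR-30e-5p: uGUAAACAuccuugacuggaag
miR-30c-5p: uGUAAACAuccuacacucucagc
miR-384-5p: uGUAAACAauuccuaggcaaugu
Of the 156 names in the table that matched a RefSeq mature sequence, 5 carried this seed in a listed arm, namely the 4 matched family rows and mir-384. Counted from 1 at the 5′ end, miR-30a-5p and miR-30e-5p differ by the substitution C13U alone (miR-30a base first) and share the other 21 bases. Without gaps, miR-30c-5p has 17 of 22 bases in common with each of them.

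Each table row is named for a hairpin, and whether a row counts reads of one arm or of both is not stated. The 9 rows marked with an asterisk do not settle this, since all 9 repeat the counts of the unmarked row of that name, and no miR-30 row is among them. The hairpin of mir-30a is shown because this row carries most of the family's counts. Capitals mark its arms, the guide on the 5′ side and miR-30a-3p, which has another seed, on the 3′ side.
mir-30a hairpin, chromosome 9, plus strand: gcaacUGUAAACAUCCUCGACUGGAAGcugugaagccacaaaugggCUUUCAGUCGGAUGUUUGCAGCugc
The copies of mir-30c yield the same miR-30c-5p, and their opposite arms, shown with the seed in capitals, differ by G9A, U12C and C22U (mir-30c-1 base first).
miR-30c-1-3p: cUGGGAGAggguuguuuacucc
miR-30c-2-3p: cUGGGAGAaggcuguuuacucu
The rows of the copies were equal in control and differed by 1 count in swim, so the table does not separate them. In the RefSeq annotation the genes lie in 3 neighbouring pairs, mir-30a with mir-30c-2 on chromosome 9, mir-30e with mir-30c-1 on chromosome 5 inside Nfyc, which encodes a subunit of the transcription factor NF-Y, and mir-30b with mir-30d on chromosome 7 inside a long noncoding RNA gene. No other annotated gene lies between the members of a pair.

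The libraries held 3219939 counts over the unmarked miRNA rows in swim and 2460845 in control. A row named Others, which names no miRNA, took a further 12.5% of all counts in swim and 5.40% in control and was left out of these totals. Levels are given as CPM, the usual count scaled to the library total. The 161 distinct miRNAs with a summed count of at least 20 had a median swim-to-control ratio of 0.666, with 44 above 1 and 117 below. The 65 of them with a summed count of at least 2000, which include all 5 miR-30 measurements, had a median of 1.05, with 37 above 1 and 28 below. The family is therefore set against this high-count group. With no replicate, no test between conditions was made, and each 95% interval covers counting error only.

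The family as a whole took a larger share of the swim library. Its 5 measurements summed to 18.8% of the counts in swim and 13.3% in control, a ratio of 1.41 (95% interval 1.40 to 1.42). The share grew by 5.48 percentage points, of which mir-30a made up 5.30. Without mir-30a the other 4 measurements summed to 2.22% in swim and 2.05% in control, a ratio of 1.09 (1.07 to 1.10), so the size of the family's summed difference rests on mir-30a. That 1.09 pools unlike members, with mir-30e at 1.73, mir-30c at 1.42, mir-30b at 1.09 and mir-30d at 0.847. The most abundant of these 4 was mir-30d. Shares of one library add up to a whole, and the counts outside the 6 family rows fell to 80.8% in swim, against 86.4% in control, a ratio of 0.935. With these rows left out of the library total, its ratio was 1.51.

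The entry mir-30a, studied as a repressor of Becn1, had 534547 counts in swim and 277993 in control, or 166012 CPM in swim and 112966 CPM in control. It was the second most abundant miRNA in swim and the third in control. Its ratio was 1.47 (1.46 to 1.48). Within the family it made up 88.2% of the counts in swim and 84.7% in control.

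The entry mir-30e, which differs from mir-30a at a single base of the guide strand, had the highest ratio of the family, 1.73 (1.68 to 1.77). It had 17352 counts (5389 CPM) in swim and 7676 counts (3119 CPM) in control. These sequences are nearly the same, and no source used here says how reads with several matching hairpins were assigned. The rows of mir-30a and mir-30e may therefore share reads. No mature sequence was at hand for mir-30b and mir-30d, so whether their rows share reads with other members is unknown too. The mir-30e row held 3.25 counts for every 100 of mir-30a in swim and 2.76 in control.

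The entry mir-30c, studied as a repressor of connective tissue growth factor, had 4147 CPM in swim and 2912 CPM in control, a ratio of 1.42 (1.38 to 1.47). Its interval overlaps that of mir-30a, and both lie below that of mir-30e. The count ratio of mir-30a to mir-30c nonetheless changed by 1.03-fold (1.002 to 1.062), an interval just above 1.

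The neighbours mir-30b and mir-30d stood apart from these 3. The entry mir-30b had 6834 counts (2122 CPM) in swim and 4775 counts (1940 CPM) in control, a ratio of 1.09 (1.05 to 1.14). The entry mir-30d, studied as a circulating marker in heart failure, was the one member with a ratio below 1 on this scale. It had 34102 counts (10591 CPM) in swim and 30783 counts (12509 CPM) in control, a ratio of 0.847 (0.834 to 0.860). In raw counts mir-30d was higher in swim, at 1.11 times the control count, and scaling by median-of-ratios factors gave a ratio of 1.18 and scaling by TMM factors 1.03, so the side of 1 on which it lies is set by the scaling. With mir-30c counted once, the order of levels was the same in both libraries, mir-30a first, then mir-30d, mir-30e, mir-30c and mir-30b. The entries mir-30e and mir-30c lay closest, with 0.539% (0.531 to 0.547) and 0.415% (0.408 to 0.422) of the swim counts and 0.312% (0.305 to 0.319) and 0.291% (0.284 to 0.298) of the control counts, intervals that do not overlap within either library. Had reads been divided between the 2 mir-30c rows, its level would be their sum, 26709 counts in swim and 14330 in control, above mir-30e in both, while its ratio would stay at 1.42.

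**Figure D1:**
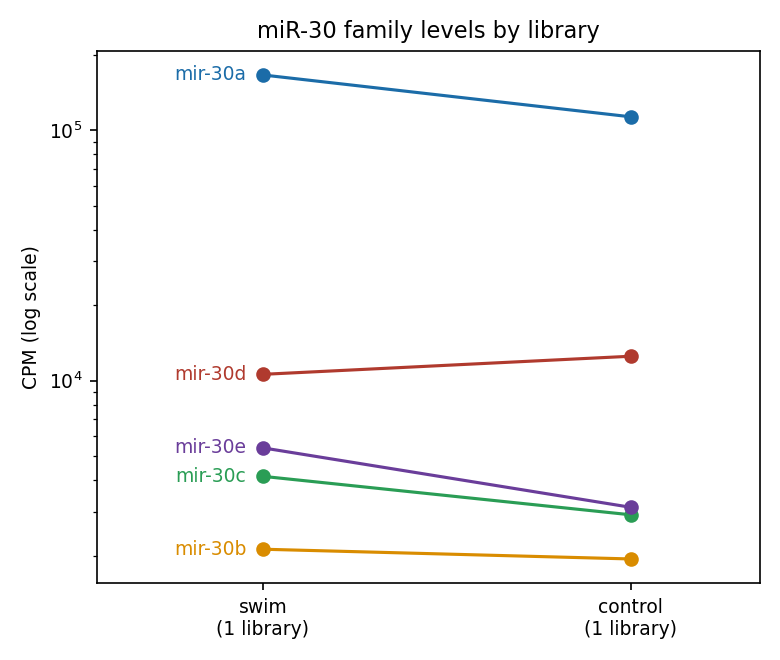
Level of each miR-30 measurement in CPM (log scale) in the swim library (left) and the control library (right), with 1 point per library and lines joining the points of one miRNA. The lines of mir-30a, mir-30e and mir-30c stand higher in swim, mir-30b differs little (2122 CPM in swim and 1940 CPM in control), and mir-30d stands lower in swim (10591 CPM, against 12509 CPM in control).

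By a rule of size, a ratio of at least 2-fold with an interval that excludes 1, none of the 5 measurements was called in either direction. Over the 161 distinct miRNAs this rule called 5 higher (3.11%) and 51 lower (31.7%), and over the 65 high-count ones it called 3 higher (4.62%) and none lower. At 1.5-fold mir-30e was called higher, against 6.83% of all 161 and 12.3% of the 65. At 25% higher or more mir-30a, mir-30c and mir-30e were called higher, 3 of 5 measurements, against 12.4% of the 161 and 26.2% of the 65. No measurement was called lower at either of these sizes, against 47.2% of the 161 and 6.15% of the 65 at 1.5-fold and 50.9% and 10.8% at the smaller size. With 5 measurements, 1 call more or less moves the family's share widely.

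The calls moved with the scaling while the differences among members did not. Median-of-ratios factors, taken over entries with counts above 1 in both libraries, raised every log2 ratio by 0.48, and mir-30e and mir-30a then passed the 2-fold rule (2.41 and 2.05), against 7.45% of the 161 called higher. The ratio of mir-30c was then 1.99, just short of the rule. It passed, at 2.15, when the factors were taken over all entries, values of 1 included, a setting chosen after seeing the data that called 9.94% of the 161 higher. TMM factors raised every log2 ratio by 0.28, and mir-30e alone of the family passed (2.10), against 6.21% of the 161. In unscaled counts mir-30e alone passed (2.26), against 6.83% of the 161. The 161 include the low-count miRNAs, so these shares do not describe the high-count group. By ratio, mir-30e, mir-30a and mir-30c held places 8, 9 and 10 in that group, an order that no scaling alters. High-count miRNAs down to place 9 therefore passed under median-of-ratios factors. Under TMM factors and in unscaled counts, those down to place 8 passed.

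**Figure D2:**
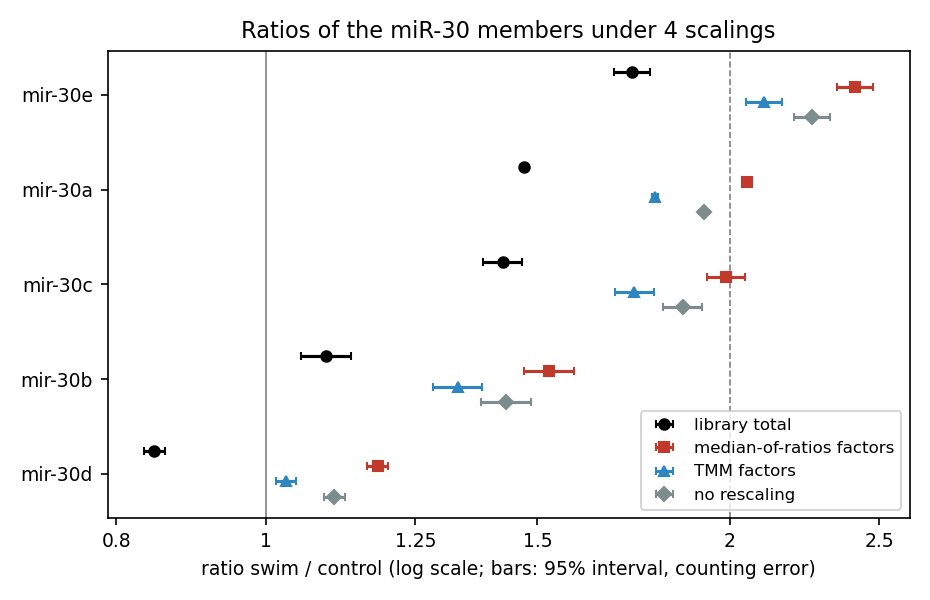
Swim-to-control ratio of each miR-30 measurement (log scale) under 4 scalings, with 95% intervals for counting error, a solid line at 1 and a dashed line at 2-fold. Each scaling shifts all members together. The ratio of mir-30d lies below 1 under the library total (0.847) and above 1 under the other scalings, and mir-30e passes 2 under all but the library total.

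Among the 65 high-count miRNAs ranked by ratio from the highest, mir-30e, mir-30a and mir-30c took the adjacent places 8, 9 and 10, while mir-30b stood at 27 and mir-30d at 55. No scaling can alter this order. Of the 60 outside the family, 33 lay above 1 and the median ratio was 1.04, against a median of 1.42 over the 5 miR-30 measurements. The 3 miRNAs nearest to mir-30a in mean CPM had ratios from 0.703 to 1.05, and the 3 nearest to mir-30e from 0.868 to 1.07, all below the member they were matched to. For mir-30c the 3 nearest ran from 1.02 to 1.39, below its ratio of 1.42. The highest of them lay within its counting interval (1.38 to 1.47). For mir-30b the 3 nearest all lay above its ratio of 1.09, from 1.10, within its counting interval, to 1.32. For mir-30d the 3 nearest ran from 0.811 to 0.970, around its own ratio.

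**Figure D3:**
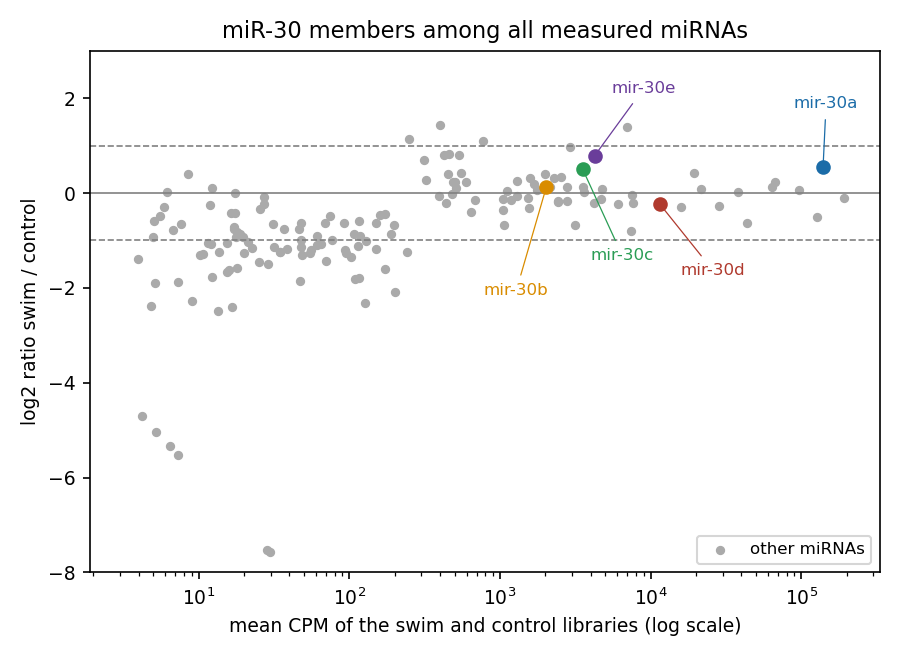
Log2 ratio of swim to control against the mean CPM of both libraries (log scale) for 161 distinct miRNAs, with the miR-30 measurements in colour and dashed lines at 2-fold. All 5 lie in the high-count region, and none crosses a dashed line. Low-count miRNAs lie mostly below 0.

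Ratios of counts between members, in which any scaling cancels, showed how unequally the family differed. Of the 10 pairs, mir-30e to mir-30d shifted most. There were 0.509 counts of mir-30e per count of mir-30d in swim and 0.249 in control, a change of 2.04-fold (1.98 to 2.10). The count of mir-30a was 15.7 times that of mir-30d in swim and 9.03 times in control, a change of 1.74-fold (1.71 to 1.76). The pair mir-30a and mir-30c shifted least, with ratios of 40.0 in swim and 38.8 in control, a change of 1.03-fold (1.002 to 1.062).

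Count ratios within genomic pairs also differed between the 2 libraries, with intervals that cover counting error only. The entries mir-30b and mir-30d, neighbours on chromosome 7, had a count ratio of 0.200 in swim and 0.155 in control, a change of 1.29-fold (1.24 to 1.34). For mir-30e and mir-30c, the pair within Nfyc, the ratio was 1.30 in swim and 1.07 in control, a change of 1.21-fold (1.17 to 1.26). The mir-30c rows do not tell its copies apart, so neither its pairing with mir-30e nor that with mir-30a measures a single locus.

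**Figure D4:**
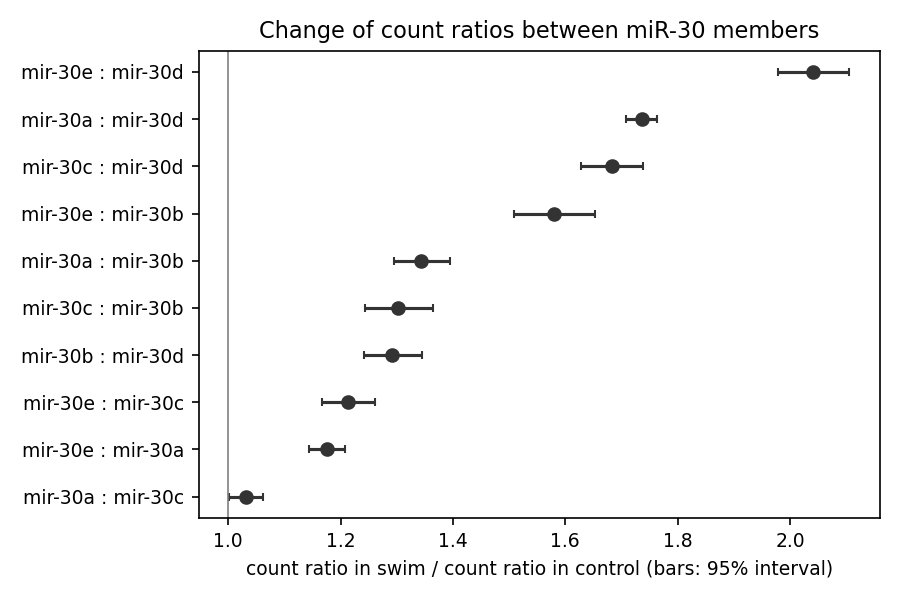
Change between libraries of the count ratio of each pair of miR-30 measurements, as the ratio in swim divided by the ratio in control, with 95% intervals for counting error and a line at 1. The 3 pairs with the largest changes all set a member against mir-30d (2.04, 1.74 and 1.68), and mir-30a to mir-30c lies nearest to 1 (1.03).

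The other rat miRNA with the family's seed, mir-384, was hardly measured. It was listed at 1 count in swim and 18 in control, a ratio of 0.0425 (0.00102 to 0.269). The value 1 was listed for 16 entries in swim and 8 in control and may be filled in. Its summed count of 19 was under the minimum of 20, and it adds little to the pool of RNAs with this seed.

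Set beside other families on a chosen list, which leaves out let-7, whose rows conflict, and miR-10, miR-30 was the most abundant of 18 in both libraries and ranked 3 of 18 by its summed ratio. The family of mir-208a, mir-208b and mir-499, which come from myosin genes, stood first at 2.12 (2.08 to 2.16) and miR-19 second at 1.98 (1.77 to 2.22), with 1.21% and 0.0348% of the swim counts, against 18.8% for miR-30. Members ran from 0.899 to 2.64 in the first of these families and from 0.293 to 2.19 in the second, where 1 of 2 lay above 1, and from 0.847 to 1.73 in miR-30. Next below came miR-29 at 1.33 (1.29 to 1.36), whose members ran from 0.236 to 1.78.

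**Figure D5:**
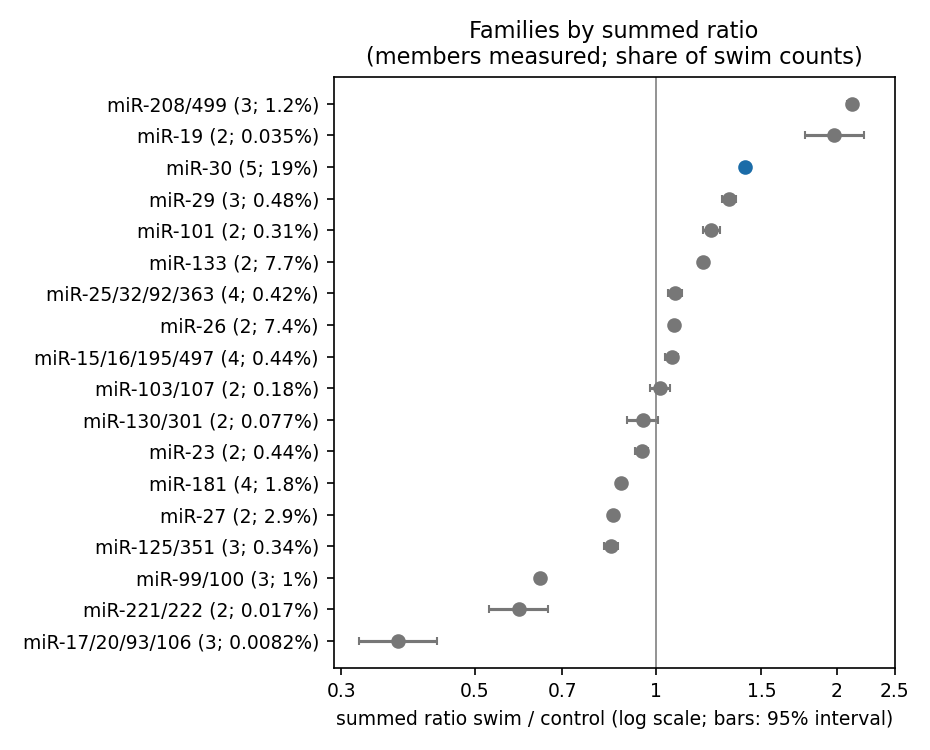
Summed swim-to-control ratio (log scale) of 18 miRNA families from a chosen list (let-7 and miR-10 not included) with at least 2 measured members, ordered from the highest, with 95% intervals for counting error. Labels give the number of members measured and the family's share of the swim counts. The miR-30 family (blue) stands in place 3, at 1.41.

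Of the marker lists for cell types of the ventricle, the cardiomyocyte list summed higher in swim under the library total, and the others lay near or below 1. A ratio of 0.821 on this scale equals 1 under TMM factors, and 0.716 does under median-of-ratios factors. The summed ratios of all the lists exceed both values, so under either set of factors every list would lie above 1. In a bulk sample a different number of cells of a type and a different amount of RNA per cell cannot be told apart. The cardiomyocyte list (6 of 6 measured) summed to 89545 CPM in swim and 70875 CPM in control, a ratio of 1.26 (1.26 to 1.27), with 4 of its 6 above 1 and members from 0.624 to 2.64. Most of that sum came from mir-133a and mir-133b. As a family they held 7.66% of the swim counts and 6.39% of the control counts, a ratio of 1.20. The lowest member was mir-1, at 0.624. The smooth muscle list (2 of 2) had 0.939, a sum made up almost wholly of mir-143 at 0.936, while mir-145 had 1.32. The endothelial mir-126a had 1.01. The fibroblast-associated list (3 of 3) had 0.917, with members from 0.370 to 1.247 and 1 of 3 above 1. The leukocyte list (4 of 5) had 0.982, with members from 0.552 to 1.07 and 1 of 4 above 1, and of the erythroid list only mir-144 was measured, at 0.849 (0.610 to 1.18). The part of cell makeup in the miR-30 ratios was not tested. Relative to single cardiomyocyte miRNAs, the family's summed count changed by 1.20-fold (1.19 to 1.21) against mir-133a and 1.19-fold (1.13 to 1.24) against mir-499. It changed by 1.57-fold (1.47 to 1.67) against mir-208a and 2.26-fold (2.15 to 2.38) against mir-1, and by 0.722-fold (0.698 to 0.747) against mir-133b and 0.534-fold (0.521 to 0.546) against mir-208b. The family was therefore higher in swim than in control relative to 4 of these 6 and lower relative to the other two. Against mir-143, the most abundant entry, its count was 1.02 times in swim and 0.674 times in control.

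The miRNAs whose ratio was most like that of the family, by the absolute difference in log2 ratio over the 2 libraries and within the high-count group, were mir-29a, mir-10b and mir-130a. The ratio of mir-29a was 1.39 (1.36 to 1.43), with 13470 counts in swim and 7384 in control. The ratio of mir-10b was 1.35 (1.33 to 1.36) and that of mir-130a 1.33 (1.24 to 1.43). Likeness over 2 libraries is a single difference and says little about a shared pattern.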

How the data were processed

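Small RNA was sequenced from left ventricle, with 1 library per condition, made by Illumina's method after miRNeasy isolation, per the labels' protocols. The authors deposited 1 table of counts per hairpin name and library, taken as unscaled. The submitters' processing notes name Bowtie 0.12.2 and the builds rn5 and rn4 without saying what each was used for. Trimming, the assignment of reads matching several hairpins and the annotation release are unknown here.

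Of the 203 rows, Others and 9 asterisk rows were left out. Both let-7e rows, which conflict, stayed in the totals but got no ratio. Copies within 2% of each other in both libraries were counted once, as their mean. Ratios have exact conditional binomial (Clopper-Pearson) 95% intervals. Count ratios between members have log-scale normal intervals in place of the planned exact ones, which took too long. Shares have exact binomial intervals. PCR reads without molecular identifiers are not independent molecules, so intervals cover counting error only. Log2 ratios for calls used a pseudocount of 0.5. TMM factors came from edgeR 4.0.16, used for these only, and other values from Python 3.11.15 and scipy 1.17.1. In 20 simulations of swim against control over 161 miRNAs, 50 were changed 3-fold, up or down at random. The rule called 97.1% of the changed correctly and 0.318% of the unchanged, and 95.4% of intervals held the true ratio. Counts were drawn with Poisson error and known totals, without spread between animals, PCR duplicates or scaling error. These rates therefore cover counting error only and are not error rates for the calls made here.

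The members, lists, families and alternatives were chosen with earlier results of these data known. Named were all member rows, mir-384 and the 3 high-count miRNAs nearest in ratio to the family. mir-143 and families above and next below miR-30 were named after their values were seen.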

Additional observations from a re-analysis of the deposited data

How the results depend on the processing

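No paired analysis was possible because each condition has 1 library. The ratios of mir-30e, mir-30a, mir-30c and mir-30b and that of the family sum stayed above 1 under each scaling tried, and mir-30d crossed 1. In that order and with the family sum last, median-of-ratios factors gave 2.41, 2.05, 1.99, 1.53, 1.18 (mir-30d) and 1.97. The same factors over all entries, a setting chosen after seeing the data, gave 2.61, 2.22, 2.15, 1.65, 1.28 and 2.13. TMM factors gave 2.10, 1.79, 1.73, 1.33, 1.03 and 1.72, and no rescaling gave 2.26, 1.92, 1.86, 1.43, 1.11 and 1.85. A total that includes the row Others gave 1.60, 1.36, 1.32, 1.01, 0.783 and 1.30. In this setting the interval of mir-30b, 0.975 to 1.05, included 1. A total over entries outside the family gave 1.85, 1.57, 1.52, 1.17, 0.905 and 1.51. Without mir-143 in the total, mir-30a had 1.45, mir-30d 0.834 and the family sum 1.39, while mir-30e, mir-30c and mir-30b stayed within their counting intervals. The family's ratio was 1.42 as the median of its measurements and 1.09 without mir-30a, a setting chosen after seeing the data. Counting hairpin copies once in the total, summing both mir-30c copies, using either copy alone and a pseudocount of 5 left the ratios computed with them within their counting intervals.

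The number of measurements past the size rule was 0 under the library total. It was 2 under median-of-ratios factors, 3 under these factors over all entries, 1 under TMM factors and 1 with no rescaling. It was 1 at 1.5-fold and 3 at 25%, and the same with a minimum summed count of 2000, chosen after seeing the data. The family's place among the families was 3 of 18 under each alternative run. Scaling by median-of-ratios or TMM factors cannot alter this order, so only summing all hairpin copies could have moved it. Depth was not the limit for the members, each with at least 4775 counts in a library. The spread between animals cannot be had from 1 library per condition.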
